A study of Mus musculus with 4 samples.

Results

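The miR-29 family of mouse liver is described here through its 7 mature miRNAs, 3 guide arms and 4 passenger arms, of 1907 mature miRNAs counted in each library. The members were chosen by name, as the rows for both arms of the miR-29a/b-1 and miR-29b-2/c hairpin clusters, a rule that uses no measured value. Small RNA was sequenced from livers of 15-week-old C57BL/6 mice injected with thioacetamide (TAA), a compound toxic to hepatocytes whose repeated dosing scars the rodent liver, and from livers of control mice of the same strain and age. Doses were intraperitoneal, 200 mg/kg, 3 times a week for 10 weeks, and the labels give no vehicle for the controls. Each group had 2 libraries, with 43836911 and 48878003 miRNA counts in TAA-treated liver and 42609845 and 46224018 in control liver. The series calls them biological replicates without naming animals, so the spread between these libraries may in part be technical. The edgeR and limma p-values below rest on that spread, estimated with information shared between miRNAs. The liver-specific miR-122-5p stood at 17376 and 17500 CPM (counts per 1000000 miRNA counts of a library, scaled with TMM factors) in TAA-treated liver and at 18284 and 21607 CPM in control liver.

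A miRNA is cut from a hairpin RNA as a duplex, of which the guide strand is loaded into Argonaute and pairs through its seed with target mRNAs, while most of the passenger strand is degraded. The miR-29 guides are known for repressing mRNAs of fibrillar and basement-membrane collagens, elastin and other matrix proteins. In liver fibrosis they are known to be lowered in hepatic stellate cells, the main collagen-producing cells, where TGF-β represses their transcription.

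The guide sequences are shown to make plain what the members share, with the seed (bases 2 to 8 from the 5′ end) in capitals. All 7 members were found in the RefSeq table for GRCm38.p6.
mmu-miR-29a-3p: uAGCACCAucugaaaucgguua
mmu-miR-29b-3p: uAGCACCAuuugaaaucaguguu
mmu-miR-29c-3p: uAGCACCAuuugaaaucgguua
The 3 guides carried 1 seed and were identical over their first 9 bases. Among 1679 mature miRNA names in that table, these 3 were the ones with this seed. Counted from the 5′ end, miR-29c-3p differed from miR-29a-3p by 1 substitution, C10U. miR-29b-3p differed from miR-29a-3p by 4 substitutions over 22 compared bases, C10U, G18A, U21G and A22U, and was 1 base longer. How a read with a mismatch at position 10 was divided between miR-29a-3p and miR-29c-3p is not stated in the labels.

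The passenger arms are shown because they differ between hairpins and so tell the clusters apart, which the shared miR-29b-3p cannot. Capitals again mark bases 2 to 8.
mmu-miR-29a-5p: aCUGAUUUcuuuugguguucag
mmu-miR-29b-1-5p: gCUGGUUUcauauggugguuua
mmu-miR-29b-2-5p: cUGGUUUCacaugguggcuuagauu
mmu-miR-29c-5p: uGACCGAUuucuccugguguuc
No passenger shared its seed with another member. The miR-29b-2-5p seed was shared with 1 other listed miRNA, miR-6338.

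The family comes from 4 hairpins at 2 loci, in GRCm38 (mm10) coordinates. Mir29a lies at chr6:31062660-31062747 and Mir29b-1 at chr6:31063023-31063093, both on the minus strand with 275 bases between them. The annotation places Mir29a outside other genes, while the first bases of Mir29b-1 overlap an exon of the lincRNA gene Gm27019 on the same strand. Mir29b-2 lies at chr1:195037040-195037120 and Mir29c at chr1:195037547-195037634, both on the plus strand with 426 bases between them. Both lie in an exon of the non-coding gene A330023F24Rik and, on the opposite strand, face a UTR of Cd46, a complement regulator. The chromosome 6 hairpins show where the arms sit, with the guide in capitals and the passenger in the lower-case part before the loop.
Mir29a: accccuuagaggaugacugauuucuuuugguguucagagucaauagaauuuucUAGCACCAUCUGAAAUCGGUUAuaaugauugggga
Mir29b-1: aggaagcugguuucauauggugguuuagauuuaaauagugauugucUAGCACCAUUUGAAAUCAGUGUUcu
Mir29b-1 and Mir29b-2 give the same miR-29b-3p, so its count cannot be assigned to a locus.

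The series set TAA-treated liver beside control liver to find miRNAs with a possible role in the progression of fibrosis. In TAA-treated liver 2 of the 3 guides were lower: miR-29c-3p fell by 28.7% and miR-29b-3p fell by 31.4%, while the more abundant miR-29a-3p and the 4 passengers did not pass the test. No member rose. All 7 members passed the filter on low counts, and in all 7 both TAA libraries lay below both control libraries in CPM. That order held in 165 of the 644 miRNAs tested, or 25.6%. The median log2 fold change (TAA over control) was -0.45 over the 7 members, with a range of -0.54 to -0.14, beside -0.0042 over all 644. These 7 values are arms of 4 hairpins and are not independent.

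Of the 644 miRNAs tested, 2.64% were called lower (17) and 14% higher (90), with edgeR's quasi-likelihood test and a Benjamini-Hochberg adjusted p under 0.05. The 2 members called lower, of 7, stand against that 2.64%. The number of miRNAs called lower moved with the libraries, to 3 without TAA 1, 2 without TAA 2, 29 without control 1 and 33 without control 2. The number called higher was 51 without TAA 1 and 47 without TAA 2. In bulk liver, fewer cells of a type and less RNA per cell cannot be told apart.

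**Figure D1:**
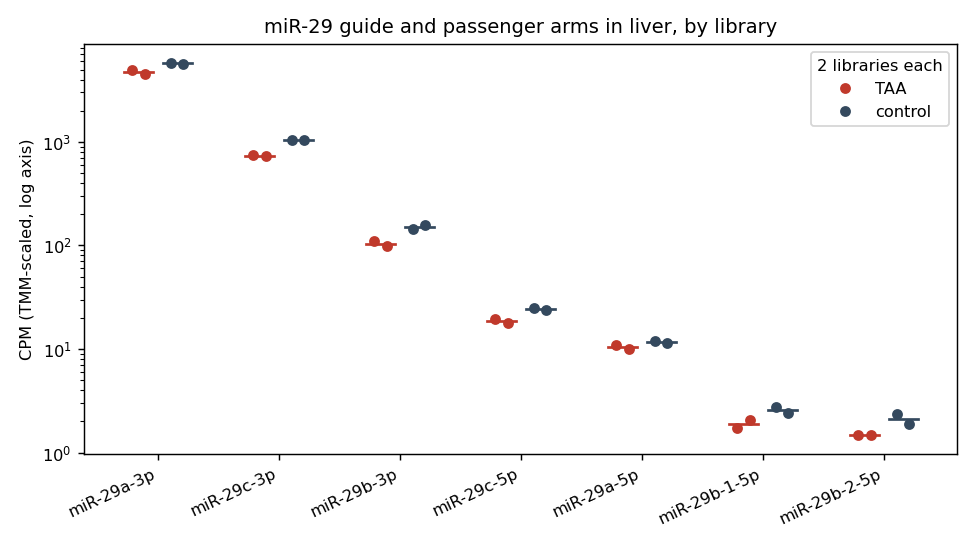
CPM (TMM-scaled, log axis) of the 7 miR-29 arms in each library, with TAA left of control for each arm. Points are libraries and bars are means of 2. In every arm both TAA points lie below both control points, with the narrowest gap in miR-29a-5p.

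miR-29a-3p was the most abundant guide, ranking 27th of all miRNAs by mean level. Its counts were 223789 and 234371 in TAA-treated liver, against 246800 and 243030 in control liver, which gave 4924 and 4568 CPM in TAA-treated liver and 5830 and 5685 CPM in control liver. The groups did not overlap, and the nearest TAA and control libraries were -0.21 apart on the log2 scale, beside 0.11 between the TAA libraries and 0.04 between the controls. The log2 fold change was -0.28 (SE 0.10, edgeR adjusted p = 0.115), which did not pass. Its 95% interval, which like those below is not adjusted for the number of miRNAs tested, was -0.51 to -0.05. The adjusted p passed with upper-quartile factors (-0.45, adjusted p = 0.0453), which also moved the median of all miRNAs to -0.17.

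miR-29c-3p, which differs from miR-29a-3p at a single base, had 33949 and 37232 counts in TAA-treated liver and 43819 and 44108 in control liver. That corresponded to 747 and 726 CPM in TAA-treated liver, against 1035 and 1032 CPM in control liver. The libraries of each group lay close together, 0.04 apart on the log2 scale for TAA and 0.0046 for control, while the nearest TAA and control libraries were -0.47 apart. Its level averaged 736 ± 15.0 CPM in TAA-treated liver and 1033 ± 2.32 CPM in control liver (SD, n = 2 each), with a log2 fold change of -0.49 (SE 0.11, edgeR adjusted p = 0.0185). The call was lost without TAA 1 (-0.51, adjusted p = 0.159) and without TAA 2 (-0.46, adjusted p = 0.170), and held without control 1 (-0.51, adjusted p = 0.0338) and without control 2 (-0.50, adjusted p = 0.0267).

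miR-29b-3p, which both loci encode, had 4969 and 5077 counts in TAA-treated liver and 6138 and 6784 in control liver. Its CPM were 109 and 99.0 in TAA-treated liver, against 145 and 159 in control liver. Within each group the libraries differed by 0.14 (TAA) and 0.13 (control) on the log2 scale, and the nearest libraries of the groups by -0.41. The mean was 104 ± 7.33 CPM in TAA-treated liver and 152 ± 9.69 CPM in control liver (SD, n = 2 each), a log2 fold change of -0.54 (SE 0.14, edgeR adjusted p = 0.0335). The call was lost without TAA 1 (-0.62, adjusted p = 0.170), without TAA 2 (-0.47, adjusted p = 0.283) and without control 2 (-0.49, adjusted p = 0.0997), and held without control 1 (-0.63, adjusted p = 0.0261). Neither guide passed with library size alone as the scaling, among miRNAs with a mean of at least 10 CPM, or without the imprinted Dlk1-Dio3 miRNAs.

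**Figure D2:**
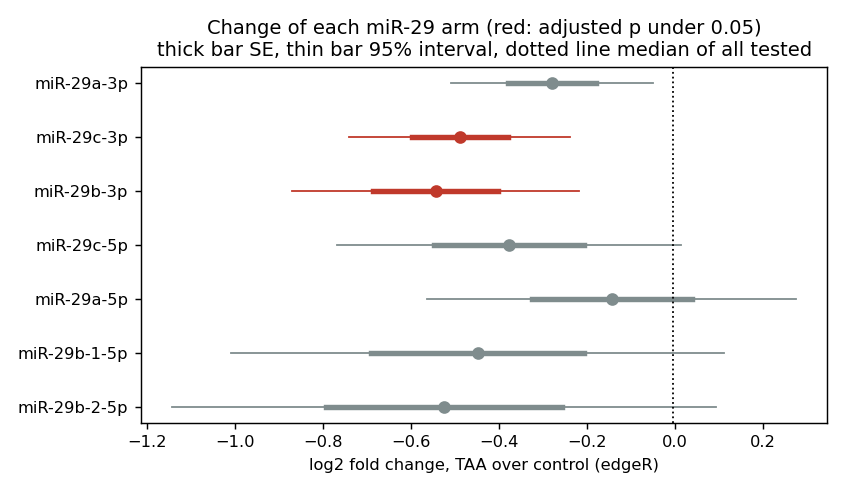
log2 fold change of each miR-29 arm, TAA over control, from edgeR; thick bars are SE, thin bars 95% intervals, and the dotted line is the median of all 644 miRNAs. miR-29c-3p (-0.49) and miR-29b-3p (-0.54), in red, had an adjusted p under 0.05, and all 7 points lie left of the dotted line.

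The passenger arms made up 0.583% and 0.574% of the family's counts in TAA-treated liver and 0.593% and 0.567% in control liver. None of the 4 was called by edgeR, by DESeq2 or by limma-voom, and 0 of the 4 had an unadjusted edgeR p under 0.05. miR-29c-5p had 892 and 907 counts in TAA-treated liver and 1053 and 1008 in control liver, or 19.6 and 17.7 CPM in TAA-treated liver, against 24.9 and 23.6 CPM in control liver. Its log2 fold change was -0.38 (SE 0.17, 95% interval -0.77 to 0.01, edgeR adjusted p = 0.213).

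miR-29a-5p was the member whose groups lay closest, at 11.0 and 9.94 CPM in TAA-treated liver and 11.8 and 11.3 CPM in control liver. Its log2 fold change was -0.14 (SE 0.18, 95% interval -0.56 to 0.28, edgeR adjusted p = 0.713). By share of miRNA counts, without TMM scaling, its groups overlapped, so the order seen in all 7 members in CPM rested in part on the scaling.

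The miR-29b passengers were the rarest members. miR-29b-1-5p, from chromosome 6, had 79 and 105 counts in TAA-treated liver and 117 and 103 in control liver, so the raw counts overlapped and the scaled values, 1.74 and 2.05 CPM in TAA-treated liver and 2.76 and 2.41 CPM in control liver, did not. miR-29b-2-5p, from chromosome 1, had 67 and 76 counts in TAA-treated liver and 100 and 81 in control liver, or 1.47 and 1.48 CPM in TAA-treated liver and 2.36 and 1.89 CPM in control liver. Their log2 fold changes were -0.45 (SE 0.24, 95% interval -1.01 to 0.11) and -0.53 (SE 0.27, 95% interval -1.14 to 0.09), with edgeR adjusted p of 0.307 and 0.272. At these counts the intervals held no change as well as a drop like that of miR-29b-3p.

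The order of levels was the same in each group: miR-29a-3p, miR-29c-3p, miR-29b-3p, miR-29c-5p, miR-29a-5p, miR-29b-1-5p and miR-29b-2-5p, from high to low. Neighbours in that order had CPM ranges that did not overlap within either group, but the last 2 were close. The share of miR-29b-1-5p in the counts of both was 54.1% (95% Wilson interval 46.0% to 62.0%) and 58.0% (50.7% to 65.0%) in TAA-treated liver and 53.9% (47.3% to 60.4%) and 56.0% (48.8% to 63.0%) in control liver, and 3 of the 4 intervals held equal counts. Ligation and amplification differ between small RNA sequences, so levels of unlike miRNAs are compared here as read levels.

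Because a more abundant guide can carry most of a family's reads with a smaller fold change, the guides were also summed. Their summed level was 5780 and 5393 CPM in TAA-treated liver and 7010 and 6875 CPM in control liver, a ratio of 0.805. Of the difference of -1356 CPM in that sum, miR-29a-3p made up 74.6%, miR-29c-3p 21.9% and miR-29b-3p 3.52%. The member that did not pass the test thus held the largest part of the difference in summed level. That part was below its share of the guides' counts in control liver (83.2% and 82.7%). The parts of miR-29c-3p (14.8% and 15.0% of those counts) and miR-29b-3p (2.07% and 2.31%) were above theirs. The summed passengers stood at 33.9 and 31.1 CPM in TAA-treated liver and 41.8 and 39.2 CPM in control liver, a ratio of 0.802.

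The makeup of the guide pool also differed between the groups. miR-29a-3p took 85.2% and 84.7% of the guides' counts in TAA-treated liver, against 83.2% and 82.7% in control liver. miR-29c-3p took 12.9% and 13.5% in TAA-treated liver, against 14.8% and 15.0% in control liver. miR-29b-3p took 1.89% and 1.83% in TAA-treated liver, against 2.07% and 2.31% in control liver. In all 3 guides the groups' shares and their 95% Wilson intervals were apart, but the shares are parts of a whole and not independent. Those intervals cover counting error alone and were also apart between libraries of the same group. For miR-29a-3p they were 85.0% to 85.3% and 84.6% to 84.8% in TAA-treated liver, and 83.0% to 83.3% and 82.5% to 82.8% in control liver. Their separation between groups is thus no test of the treatment. These shares are ratios within a library and do not depend on the scaling between libraries.

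Whether miR-29b-3p and miR-29c-3p changed by another amount than miR-29a-3p was tested in edgeR with the miR-29a-3p count as the library size. The log2 fold change minus that of miR-29a-3p was -0.21 for miR-29c-3p (SE 0.11, 95% interval -0.47 to 0.05, adjusted p = 0.254) and -0.27 for miR-29b-3p (SE 0.14, 95% interval -0.60 to 0.06, adjusted p = 0.251). Of the other 6 members, 0 passed, and 0 had an unadjusted p under 0.05, where 0.776% of all miRNAs were called lower on this scale and 18.5% higher. A difference in response between the guides was thus not shown by this test. Set against each other, miR-29c-3p and miR-29b-3p had overlapping groups, with a log2 ratio of 2.77 and 2.87 in TAA-treated liver and 2.84 and 2.70 in control liver (exact two-sided permutation p = 0.667).

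The same question was put to the loci. The log2 ratio of counts of arms made by miR-29b-2/c alone over arms made by miR-29a/b-1 alone was -2.68 and -2.62 in TAA-treated liver and -2.46 and -2.43 in control liver, a difference of -0.21. The libraries did not overlap, but the exact two-sided permutation p was 0.333, the smallest that 2 libraries against 2 can give. That ratio rests almost entirely on miR-29a-3p and miR-29c-3p, so the passengers were taken apart from the guides. The passengers gave a log2 ratio of 0.72 and 0.68 in TAA-treated liver and 0.90 and 0.89 in control liver, a difference of -0.19 beside -0.21 in the guides (exact two-sided permutation p = 0.333 for each). Of the passenger reads, 62.3% (95% Wilson interval 59.8% to 64.7%) and 61.5% (59.1% to 63.9%) came from miR-29b-2/c in TAA-treated liver, against 65.1% (62.9% to 67.3%) and 64.9% (62.6% to 67.2%) in control liver. The counting intervals of the groups overlapped. Which locus gave the miR-29b-3p reads was not part of either ratio.

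**Figure D3:**
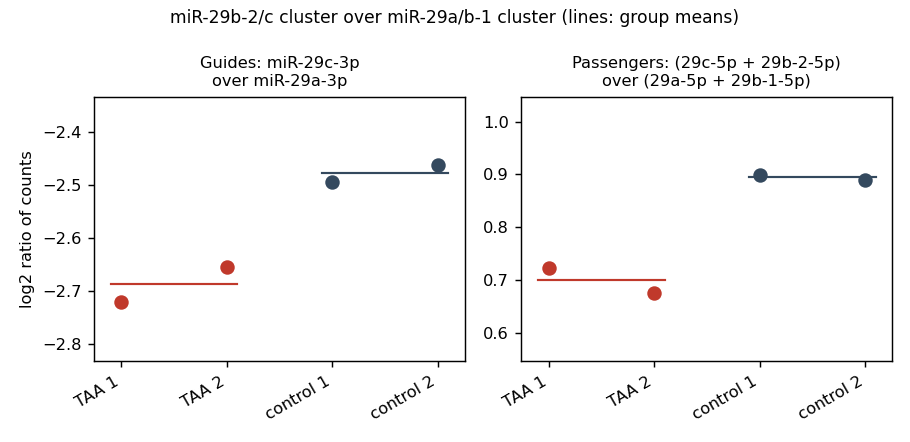
log2 ratio of counts from the miR-29b-2/c cluster over counts from the miR-29a/b-1 cluster, by library, for guides (left) and passengers (right); lines are group means. Both panels span the same height, and in both the TAA libraries lie below the controls, by -0.21 for guides and -0.19 for passengers.

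Guide and passenger of a hairpin are cut from the same RNA, and their ratio asks whether the strands changed together. The log2 ratio of 5p over 3p counts was -8.80 and -8.84 for miR-29a in TAA-treated liver, against -8.94 and -8.97 in control liver, a difference of 0.13 (SE 0.18). It was -5.25 and -5.36 for miR-29c in TAA-treated liver, against -5.38 and -5.45 in control liver, a difference of 0.11 (SE 0.18). For miR-29b, with both passengers summed, it was -5.08 and -4.81 in TAA-treated liver and -4.82 and -5.20 in control liver, a difference of 0.06 (SE 0.22) with groups that overlapped. In miR-29a and miR-29c both TAA ratios lay above both control ratios. How often the groups lay apart among all arm pairs was not counted, so that order is not read as a change. None of the 3 passed limma's moderated test (adjusted p = 0.985 for each), whose SE draws on the spread of all arm pairs. The residual SD of the libraries themselves was 0.03 for miR-29a, 0.07 for miR-29c and 0.24 for miR-29b. Of the 151 arm pairs fitted, 0% (0) passed and 5 had an unadjusted p under 0.05.

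The strand bias itself differed strongly between the family's hairpins. There were 446 and 460 reads of miR-29a-3p for each read of miR-29a-5p in TAA-treated liver, and 493 and 501 in control liver. For miR-29c the 3p reads per 5p read were 38.1 and 41.0 in TAA-treated liver and 41.6 and 43.8 in control liver. There were 6.59 and 6.29 reads of miR-29a-3p for each read of miR-29c-3p in TAA-treated liver and 5.63 and 5.51 in control liver, while miR-29a-5p was the rarer of their passengers in all 4 libraries.

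The miRNAs whose profile over the 4 libraries lay nearest to each guide were found by the root mean square difference of log2 CPM, each taken as its deviation from its own mean, among 268 other miRNAs with a mean of at least 10 CPM. Nearest to miR-29c-3p were miR-190a-5p (0.048), miR-148a-5p (0.048) and miR-203-3p (0.053). Of these, miR-148a-5p and miR-203-3p were called lower, with edgeR adjusted p of 0.0444 and 0.0248. Nearest to miR-29b-3p were miR-455-5p (0.039), miR-190a-5p (0.042) and miR-92a-1-5p (0.054), of which miR-455-5p was called lower (edgeR adjusted p = 0.0252). miR-29a-3p lay nearest to both arms of miR-339 (0.030 and 0.035) and to miR-664-3p (0.039), none of which passed. miR-29b-3p and miR-29c-3p lay 0.066 apart, with 3 of the 268 closer to miR-29b-3p, whereas miR-29c-3p lay 0.11 from miR-29a-3p, with 56 closer to miR-29a-3p. These distances rest on 4 libraries and say nothing of shared function. The same libraries gave the edgeR calls, so lower calls among miRNAs picked for likeness to a lower guide are not separate results.

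miRNAs next to the guides in level gave a view of other changes at the same depth. Around miR-29c-3p, miR-5099 and miR-23b-3p above it and miR-27a-3p below it did not pass, with log2 fold changes of 0.11, -0.05 and 0.12, and miR-31-5p rose (0.62, edgeR adjusted p = 0.0156). Around miR-29a-3p, let-7c-5p, let-7g-5p, miR-101a-3p and miR-100-5p did not pass, with log2 fold changes of 0.12, -0.17, -0.30 and -0.11. Around miR-29b-3p, miR-676-3p fell (-0.62, adjusted p = 0.0384), miR-150-5p rose (1.34, adjusted p = 0.000241), and miR-455-3p (-0.32) and miR-1948-5p (-0.06) did not pass.

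Other miRNAs reported to act in fibrosis were taken from lists without miR-29. Of all 644 miRNAs tested, 14% were called higher and 2.64% lower, and 165 had an unadjusted edgeR p under 0.05 in either direction. Of 17 reported as anti-fibrotic, 1 was called higher and 0 lower, by edgeR, DESeq2 and limma-voom alike. At an unadjusted edgeR p under 0.05, 1 was higher and 5 lower. The median change of the 17 was -0.19 on the log2 scale. That median was -0.36 with upper-quartile factors, -0.07 with library size alone and -0.10 at a mean of at least 10 CPM. With no filter on low counts 2 were called lower and 2 higher, beside 32 and 105 of all 1256. With TMM factors and the low-count filter, the 1 called higher was miR-150-5p, a lymphocyte miRNA that is also in the leukocyte list. miR-30a-5p, reported to restrain TGF-β signalling, stood at 52886 and 50565 CPM in TAA-treated liver against 59576 and 64393 CPM among controls (-0.26 on the log2 scale, SE 0.09, edgeR adjusted p = 0.114). Without control 1, 5 of the 17 were called lower, and 1 without control 2, where 2 were called higher. Of 13 reported as pro-fibrotic, 3 were called higher, beside 14% of all miRNAs, and 0 lower, beside 2.64%. DESeq2 and limma-voom each called 4 higher and 0 lower, where they called 79 of 696 and 90 of 644 of all miRNAs higher. At an unadjusted edgeR p under 0.05, 5 of the 13 were higher and 0 lower. Their median was 0.19, with 0.02 under upper-quartile factors and 0.31 with library size alone, and 0 were called higher without TAA 1 or without TAA 2. The p53-induced miR-34a-5p rose, at 81.2 and 73.2 CPM in TAA-treated liver against 38.6 and 26.5 CPM in control liver, and so did miR-155-5p, a miRNA of activated immune cells, at 11.0 and 12.0 CPM in TAA-treated liver against 6.24 and 5.71 CPM in control liver.

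Markers of liver cell types were read in the same libraries, against the 14% and 2.64% of all miRNAs called higher and lower. None of the 9 hepatocyte miRNAs was called by edgeR, DESeq2 or limma-voom. At an unadjusted edgeR p under 0.05, 4 were lower and 0 higher, beside 165 of all 644 in either direction. Both TAA libraries lay below both controls in 25.6% of all miRNAs tested and in 8 of these 9. Their median log2 fold change was -0.30, and their summed levels were 330895 and 341946 CPM in TAA-treated liver against 365055 and 398386 CPM in control liver. With upper-quartile factors 2 were called lower, beside 32 of all 644, and with no filter on low counts 2, beside 32 of all 1256. The median of the 9 was -0.47 with upper-quartile factors and -0.17 with library size alone. Without control 1, 3 of them were called lower, and 1 without control 2, where the median was -0.18. Of 9 stellate and smooth muscle miRNAs, 1 was called higher, miR-214-3p, and 0 lower. DESeq2 and limma-voom each called 2 higher and 0 lower, where they called 79 of 696 and 90 of 644 of all miRNAs higher. At an unadjusted edgeR p under 0.05, 3 of the 9 were higher and 1 lower. Their sums overlapped, at 31873 and 23614 CPM in TAA-treated liver and 28088 and 28373 CPM in control liver. Their median of 0.16 was -0.02 with upper-quartile factors, 0.28 with library size alone, -0.22 without TAA 1 and 0.44 without TAA 2.

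Of 7 leukocyte miRNAs 0 were called lower, beside 2.64% of all tested, and 0 were lower by DESeq2, limma-voom or an unadjusted edgeR p under 0.05. Higher calls numbered 3, beside 14% of all tested, and the median of the 7 was 0.57. Their sums were 2501 and 2070 CPM in TAA-treated liver against 1216 and 1808 CPM in control liver. That count was 1 without TAA 1 or without TAA 2, 7 without control 2, 2 with upper-quartile factors, and 6 with library size alone or with no filter on low counts. All 5 erythroid miRNAs were called higher, with sums of 731 and 2627 CPM in TAA-treated liver against 445 and 274 CPM in control liver, and without TAA 2 their median of 2.23 became 1.03 and 0 passed. DESeq2 called 0 of the 5 and limma-voom 2, and 0 passed at a mean of at least 10 CPM or without the Dlk1-Dio3 miRNAs. No marker was at 0 in any library. The part of these cell types in the lower miR-29 levels was not tested.

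**Figure D4:**
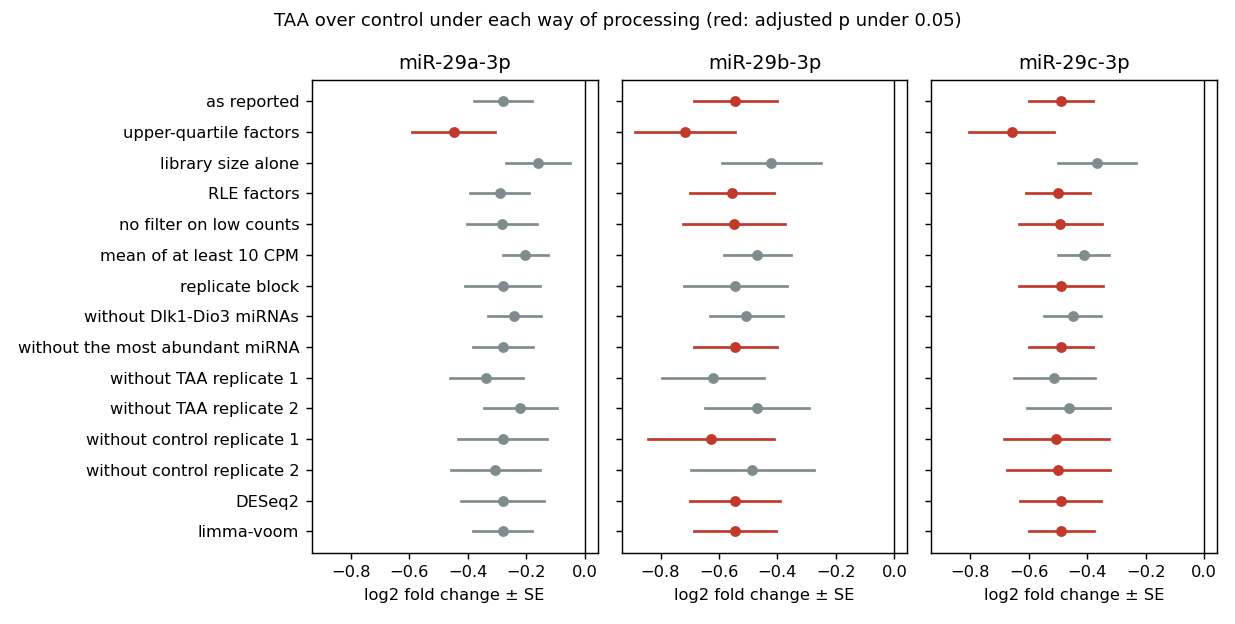
log2 fold change (TAA over control, ± SE) of the 3 miR-29 guides as reported and under 14 other ways of processing; red marks an adjusted p under 0.05. Every point lies below 0, and miR-29c-3p ranges from -0.66 to -0.37.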

How the data were processed

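RNA was isolated with an miRNeasy kit and made into libraries with a TruSeq small RNA kit, as the labels' protocols state. Each library has 1 deposited file of raw counts, a row for each mature miRNA. The submitters' processing notes name Bowtie, HTSeq and the mm10 build; no version, setting, trimming step or handling of reads that match several loci is stated. HTSeq's row for non-unique alignments is 0 in all 4 files although miR-29b-3p has 2 loci. The 5 summary rows were left out: reads outside miRNAs were 22.8% to 26.4% and unaligned reads 7.11% to 8.49%.

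The count test was edgeR 4.0.16 in R 4.3.3, with its filterByExpr filter, TMM factors and quasi-likelihood F test, adjusted by Benjamini-Hochberg over 644 miRNAs, threshold 0.05. The SE is the size of the log2 fold change divided by the square root of F. Both edgeR and limma share information on spread between the rows fitted, so an SE is not the spread of its own row alone. Arm ratios, with 0.5 added to each count, were fitted with limma 3.58.1 in 151 pairs with at least 20 mean counts in each arm. DESeq2 1.42.0 and limma-voom were alternatives. The edgeR and arm-ratio procedures were tested on simulated data. Replicates differed beyond read sampling (chi-square per degree of freedom 207 for TAA, 150.2 for control), so none were counted as copies. Shares have 95% Wilson intervals, which cover counting error only, since no molecular identifiers are stated. Positions are from RefSeq GRCm38.p6 and GENCODE M21 (GRCm38, which is mm10); sequences are from RefSeq.

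The rule for the members uses names alone, but the family, the lists and the tests were chosen with earlier results of these data known. Named non-members are the 3 miRNAs nearest in profile and the 2 next above and below in level for each guide, and, from each list, at most 2 miRNAs of smallest p. miR-122-5p (a check of the tissue) and miR-6338 (named for its seed) fall outside that rule, and the first was chosen with its values known. Some lists share members, such as 5 between the anti-fibrotic and hepatocyte lists and 4 between the pro-fibrotic and stellate lists. Batches are not given in the labels.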

Additional observations from a re-analysis of the deposited data

How the results depend on the processing

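Under 14 alternatives (13 for the 2 miR-29b passengers) every member kept a negative log2 fold change, and no member was called higher. Upper-quartile factors shifted the median of all miRNAs to -0.17; there 32 miRNAs were lower and miR-29a-3p passed too (-0.45). With library size alone, which moved that median to 0.12, 0 members passed (miR-29b-3p -0.42, miR-29c-3p -0.37). The share of calls that were higher was 72.2% with upper-quartile factors and 89.9% with library size alone. At a mean of at least 10 CPM, where 273 miRNAs were tested, 23 were higher, 4 lower and 0 members passed (miR-29b-3p -0.47, miR-29c-3p -0.41). Without the imprinted Dlk1-Dio3 miRNAs 7 were higher, 5 lower and 0 members passed (miR-29b-3p -0.51, adjusted p = 0.0944; miR-29c-3p -0.45, adjusted p = 0.0835). With no filter on low counts 32 were lower. At a mean of at least 10 CPM the SE was 0.11 for miR-29b-3p and 0.09 for miR-29c-3p. Without the Dlk1-Dio3 miRNAs it was 0.13 and 0.10, beside 0.14 and 0.11 as reported. An adjusted p also depends on the other miRNAs fitted. Why calls changed between the alternatives was not tested. Over these alternatives, leaving out libraries included, the adjusted p lay between 0.00418 and 0.283 for miR-29b-3p and between 0.00409 and 0.170 for miR-29c-3p.

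Leaving out each library in turn gave 47 to 98 miRNAs higher, 2 to 33 lower and 0 to 2 members lower, with log2 fold changes of -0.63 to -0.47 for miR-29b-3p and -0.51 to -0.46 for miR-29c-3p. There the miR-29b arm ratio lay between -0.13 and 0.26, with the sign turned without TAA 2 (-0.07) and without control 2 (-0.13). The guide shares, the ratios of miR-29b-3p and miR-29c-3p to miR-29a-3p, the cluster ratios and the tests relative to miR-29a-3p kept their direction, and none of those tests passed. The difference in the log2 ratio of miR-29c-3p over miR-29b-3p, 0.06 with all libraries, lay between -0.01 and 0.12, with the sign turned without control 2. With 1 library left in a group, that library was assumed to vary like the other group.

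Same-numbered libraries did not deviate together (r = -0.05 across miRNAs, which are not independent), so the numbers were not taken to pair the samples. With the replicate number as a block, 1 member was lower, as miR-29b-3p missed the threshold (-0.54, adjusted p = 0.0542). Depth limits the miR-29b passengers, with at most 117 counts per library.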
